A study of Homo sapiens with 12 samples.

Results

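The 10 genes described here encode 8 enzymes of glycolysis and lactate metabolism (GAPDH, ALDOA, ENO1, PKM, PGK1, TPI1, LDHA and LDHB) and the glucose transporters SLC2A1 and SLC2A3. They were chosen by symbol as abundant metabolic mRNAs to set against their reads crosslinked to eIF3, the translation initiation factor that recruits the small ribosomal subunit to mRNA. Of the 10 members, 8 were listed in at least 1 of 20 PAR-CLIP libraries, in which 6036 genes were listed in all. All 10 had a value in both transcript abundance tables, which hold 41129 gene symbols.

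The libraries came from Jurkat cells of Clone E6-1, a human CD4+ T cell leukemia line and therefore a single transformed clone. Activated cells were stimulated with PMA and ionomycin for 5 hr, and non-activated cells received no stimulation. Both states were given 50 μM 4-thiouridine, added 7 hr ahead of the activation step, and were crosslinked with UV light of 365 nm at 0.2 J/cm2 before immunoprecipitation with an anti-EIF3B antibody. RNA was recovered from 5 gel bands named by the eIF3 subunits in them (EIF3A/C/B, EIF3B/C, EIF3G/E/F, EIF3F/E and EIF3D/L), with 2 biological replicates of each state, and RNA-seq abundance was measured in the same states. The state of the replicate 2 PAR-CLIP samples follows the labels as corrected by the depositors.

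The shallowest library held 83846 uniquely aligned reads and the deepest 1163754, and activated libraries were on average deeper than non-activated libraries in each band. In EIF3A/C/B the mean non-activated depth was 0.0727 of the activated depth, against 0.269 in EIF3B/C and 0.814 in EIF3D/L. A cluster was called only with at least 7 reads, so a gene that is not listed had no called cluster, which is not the same as no reads. In activated EIF3A/C/B this minimum equals 6.10 and 6.02 reads per 1000000 uniquely aligned reads (RPM), against 83.0 and 83.5 RPM in non-activated EIF3A/C/B. All 9 T cell marker genes had at least 1 TPM in both states. The 11 markers of other cell types summed to 1.89 TPM in activated and 9.66 TPM in non-activated cells. Of these, 2 had at least 1 TPM in non-activated cells (CD79A 4.82 and PECAM1 4.53) and 1 in activated cells (PECAM1, 1.25).

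Glycolysis splits glucose into pyruvate and yields ATP and NADH, and the lactate dehydrogenases LDHA and LDHB regenerate NAD+ by interconverting pyruvate and lactate. SLC2A1 (GLUT1) and SLC2A3 (GLUT3) carry glucose into the cell. Activated T cells are known for raised glucose uptake and glycolysis, and GAPDH is among the most used reference mRNAs. In PAR-CLIP the 4-thiouridine in RNA crosslinks to protein and is read as a T-to-C conversion, so that each called site needs T residues near the contact.

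Sites called at the start codon were found for GAPDH, ALDOA, LDHA, PKM and PGK1, and the start codon context of the first 4 is shown because it is where reads of several enzymes were placed. The windows hold 12 bases before the start codon, the start codon in capitals, and 15 bases after it, on the coding strand, read from GENCODE v44 transcripts (GRCh38). They are from the MANE Select transcript, except ALDOA, for which the most abundant protein-coding isoform in the abundance tables was taken. In GAPDH and LDHA that isoform has another start codon, at chr12:6536605-6536607 and chr11:18396548-18396550, which is not shown. The gene-level sheets do not say which isoform's start codon a site lay on.
GAPDH start, chr12:6534833-6534835, plus strand: cgctcagacaccATGgggaaggtgaaggtc
ALDOA start, chr16:30067255-30067257, plus strand: actaccagcaccATGccctaccaatatcca
LDHA start, chr11:18396843-18396845, plus strand: tccaagtccaatATGgcaactctaaaggat
PKM start, chr15:72219095-72219097, minus strand: acctcagcagccATGtcgaagccccatagt

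The 30 bases held 4 T in GAPDH, 5 in ALDOA, 7 in LDHA and 5 in PKM, each count including the T of the start codon. Start codon sites were called for GAPDH in all 4 activated EIF3A/C/B and EIF3D/L libraries and in non-activated EIF3D/L replicate 1. They were called for ALDOA and LDHA in both activated EIF3A/C/B libraries. PKM had a start codon site in activated EIF3A/C/B replicate 1 and in both activated EIF3B/C libraries, and PGK1 in activated EIF3B/C replicate 2. The 5′-UTR of the MANE Select transcript was 76 bases long with 19 T in GAPDH and 88 bases with 15 T in PKM. Of the members listed in no library, TPI1 had a 5′-UTR of 36 bases with 5 T and SLC2A3 of 153 bases with 47 T. SLC2A1, which was listed, had a 5′-UTR of 217 bases with 17 T.

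PKM, the pyruvate kinase that makes pyruvate and ATP in the last step of glycolysis, had the most crosslinked reads of the members in activated EIF3B/C, EIF3A/C/B and EIF3D/L. In EIF3A/C/B it had 528 and 471 reads over 20 and 16 sites in activated cells, and it was not listed in non-activated cells. In EIF3B/C it had 673 and 691 reads over 20 and 19 sites in activated cells, against 38 and 56 reads over 2 and 1 sites in non-activated cells. All activated EIF3B/C values lay above the non-activated ones, also with 735 and 762 RPM against 198 and 188 RPM. By the number of sites PKM ranked between 17 and 35 among the 3454 to 4916 genes listed in these 4 activated libraries, where the median gene had 1 site. The EIF3B/C difference was 1.96 ± 0.13 on the log2 scale (estimate ± SE; edgeR quasi-likelihood test, Benjamini-Hochberg adjusted p = 0.0190), and the pooled ratio per uniquely aligned read was 3.90 (exact conditional 95% interval 3.16 to 4.86, counting error only). DESeq2 gave 1.79 without a call (adjusted p = 0.123). Scaled to the non-activated EIF3B/C depth, the activated PKM reads came to 9.40 per site, or 7.10 per site when mRNA reads set the scale. With averages this near the 7-read minimum, weaker sites of an unchanged PKM could have gone uncalled. Reads of such sites would be missing from the non-activated count and the ratio would be raised. The size of this effect was not tested.

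In EIF3A/C/B the 36.3 reads that the activated PKM reads correspond to at the non-activated depth would be spread over 18 sites on average, or 2.02 per site, below the 7-read minimum. The edgeR call of PKM as higher in activated EIF3A/C/B (adjusted p = 0.00381) thus rests on libraries in which an unchanged PKM would on average have stayed below the minimum at each site. In EIF3D/L, PKM had 81 and 102 reads in activated cells and was not listed in non-activated cells (edgeR adjusted p = 0.00114). There the same scaling gave 74.4 reads over 3.5 sites on average, or 21.3 per site, but 18.96 reads or 5.42 per site, under the 7-read minimum, when mRNA reads set the scale. The mRNA share of aligned reads was 49.2% and 49.3% in activated EIF3D/L but 12.6% and 12.5% in non-activated EIF3D/L, and the part of this shift in the result was not tested.

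PGK1, the phosphoglycerate kinase that makes the first ATP of the pathway, went the other way and was the single member called lower in activated cells. It had 59 and 66 reads in activated EIF3A/C/B, against 11 and 9 reads in non-activated EIF3A/C/B. In RPM these are 51.4 and 56.7 in activated cells, against 130 and 107 in non-activated cells, and the states did not overlap. In EIF3B/C it had 91 and 86 reads in activated cells, against 47 and 93 in non-activated cells, or 99.4 and 94.9 against 245 and 312 RPM. PGK1 was the only member listed in non-activated EIF3A/C/B, with a single 5′-UTR site in each library.

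The PGK1 difference was -1.13 ± 0.18 on the log2 scale in EIF3A/C/B (SE; edgeR adjusted p = 0.00733) and -1.52 ± 0.23 in EIF3B/C (edgeR adjusted p = 0.0234). The pooled ratios were 0.455 (exact 95% interval 0.282 to 0.770) and 0.340 (0.271 to 0.427), both for counting error only. In EIF3A/C/B the adjusted p was 0.0957 without non-activated replicate 1, at a log2 difference of -0.99. DESeq2 made neither call (-1.57, adjusted p = 0.375 for EIF3A/C/B; -1.69, adjusted p = 0.182 for EIF3B/C). Fewer crosslinked molecules per cell and fewer contributing cells cannot be told apart in such bulk libraries.

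Among the 7 members tested in EIF3A/C/B, 6 were called higher in activated cells, against 77.1% of all 3221 genes tested, and 1 was called lower, against 0.497%. Of these 3221 genes, 3024 were unlisted in both non-activated libraries and could not be called lower. Among the 112 genes listed in all 4 libraries, as PGK1 was, 14 were called lower. The 6 called higher (GAPDH, ALDOA, ENO1, PKM, LDHA and LDHB) were all unlisted in non-activated cells. Scaled to the non-activated depth, their activated reads came to between 1.07 (LDHA) and 6.49 (ENO1) per site on average. By library, 5 of the 6 lay under the 7-read minimum in both, and ENO1 came to 9.35 per site from replicate 1 and 5.06 from replicate 2. No size of change is given for the 6. In EIF3B/C, 2 of 7 members were called higher (PKM and SLC2A1), against 40.9% of 2188 genes, and 1 was called lower (PGK1), against 2.47%. Of these 2188 genes, 1161 were unlisted in both non-activated libraries and could not be called lower, and 787 of the 1161 were called higher. Among the 566 genes listed in all 4 EIF3B/C libraries, as PKM and PGK1 were, 100 were called higher and 49 lower. In EIF3D/L, 2 of 4 were called higher (PKM and ENO1), against 74.5% of 431 genes, and 0 were called lower, against 0.232%. Leaving out either activated library ended every call in these 3 comparisons, and 0 genes were then called in any band.

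**Figure D1:**
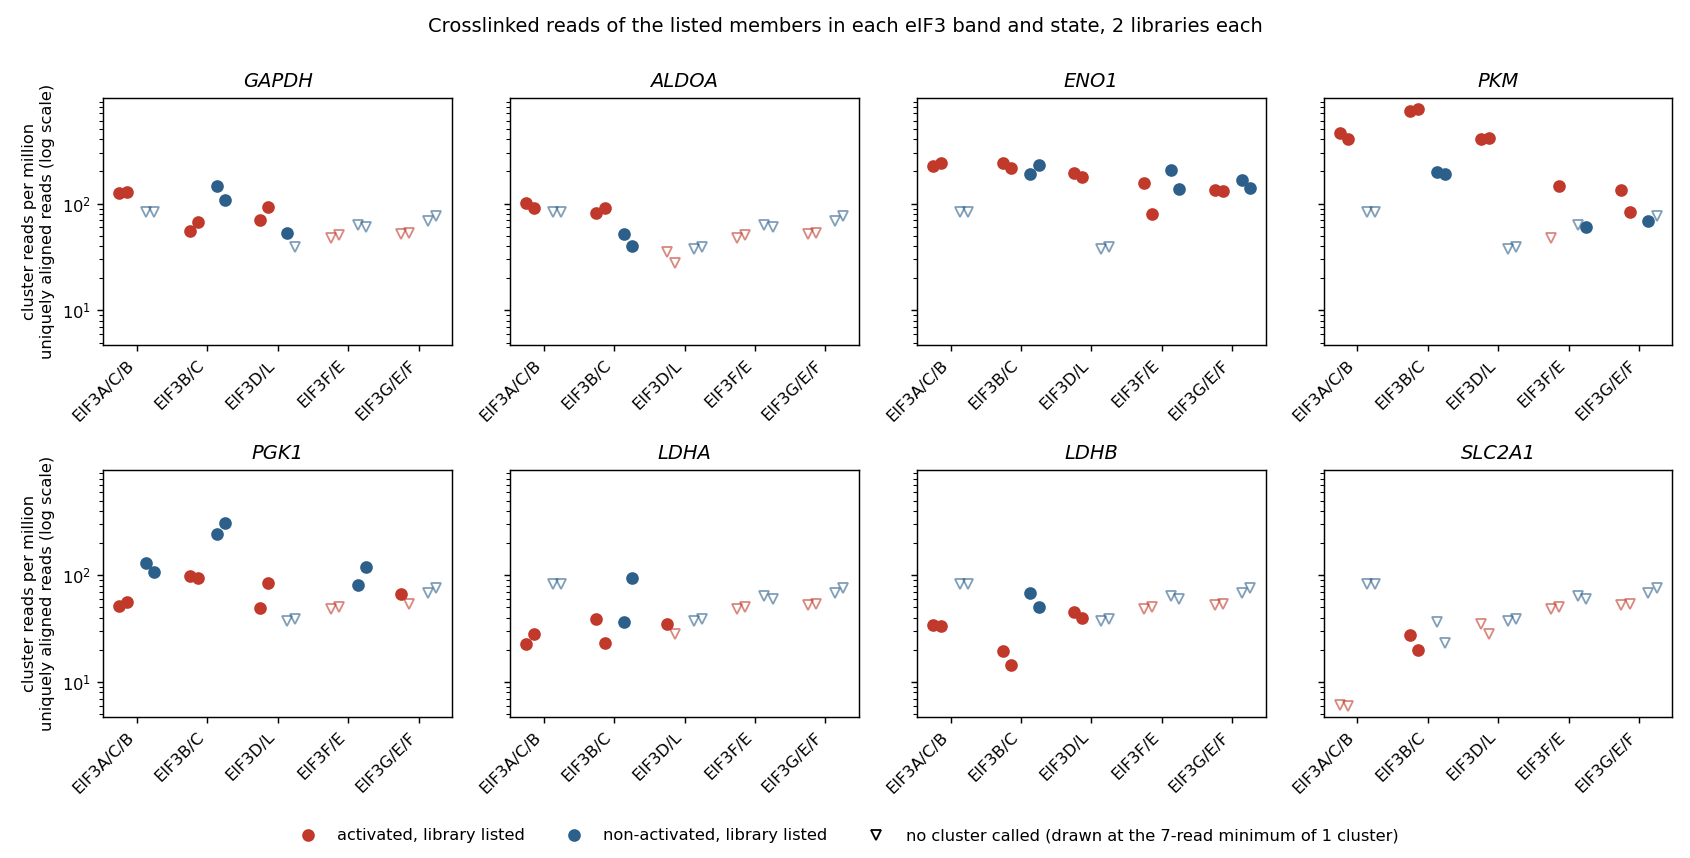
Cluster reads in RPM (log scale) of the 8 listed members in each eIF3 band, activated libraries in red left of non-activated libraries in blue, 1 point per library. Open triangles mark libraries in which no cluster was called and stand at the 7-read minimum of a single cluster. PKM in EIF3B/C lies at 735 and 762 in activated and at 198 and 188 in non-activated cells, whereas PGK1 lies lower in activated cells in both EIF3A/C/B and EIF3B/C. In EIF3A/C/B the activated PGK1 values lie under the 7-read minimum of the non-activated libraries, where PGK1 could be listed only at a higher RPM.

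GAPDH, the glyceraldehyde-3-phosphate dehydrogenase, had 144 and 148 reads in activated EIF3A/C/B (126 ± 1.23 RPM, SD, n = 2) and was not listed in non-activated EIF3A/C/B. In EIF3B/C it had 51 and 61 reads over 4 sites each in activated cells, against 28 and 32 reads over 1 site each in non-activated cells. In RPM these are 55.7 and 67.3 in activated cells, against 146 and 107 in non-activated cells. The states did not overlap. In each activated library 2 of the sites were coding, 1 was in the 3′-UTR and 1 carried no single class. The single non-activated site was in the 5′-UTR, so the states are compared over largely different sites. Scaled to the non-activated depth, the activated reads came to 3.76 per site, or 2.84 when mRNA reads set the scale. Both lie under the read minimum of a cluster, and a change at the same site was not tested. The log2 difference was -1.03 ± 0.30 (SE; edgeR adjusted p = 0.0616) and did not pass the threshold of 0.05, although it did with TMM scaling (-1.31, adjusted p = 0.0421) and with mRNA reads as library sizes (-1.44, adjusted p = 0.0348). In EIF3D/L GAPDH had 14 and 23 reads in activated cells and 10 reads in non-activated replicate 1 only, with a start codon site in each (log2 difference 1.57 ± 1.13, SE; edgeR adjusted p = 0.231). The sign of this difference turned to -0.30 with TMM scaling, -0.33 with DESeq2 and -0.37 with mRNA reads as library sizes (adjusted p = 0.857, 0.892 and 0.817).

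ENO1, the enolase that forms phosphoenolpyruvate, was listed in 16 of 20 libraries, more than any other member, and in EIF3B/C it differed least between states. In EIF3B/C it had 218 and 194 reads in activated cells, against 36 and 69 reads in non-activated cells, or 238 and 214 against 188 and 231 RPM, so that the states overlapped. Its log2 difference was 0.11 ± 0.21 (SE; edgeR adjusted p = 0.699). The pooled ratio of 1.05 had an exact 95% interval of 0.850 to 1.32. ENO1 had 257 and 278 reads in activated EIF3A/C/B and was not listed in non-activated EIF3A/C/B. In EIF3D/L it had 39 and 44 reads in activated cells and was not listed in non-activated cells (edgeR adjusted p = 0.00114). Scaled to the non-activated EIF3D/L depth these came to 22.5 reads per site, and to 5.73 per site when mRNA reads set the scale.

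ALDOA, the aldolase that cleaves fructose-1,6-bisphosphate, had 116 and 106 reads in activated EIF3A/C/B and was not listed in non-activated EIF3A/C/B. In EIF3B/C it had 74 and 82 reads in activated cells, against 10 and 12 in non-activated cells, or 80.8 and 90.4 against 52.2 and 40.2 RPM. These values did not overlap, but the log2 difference of 0.90 ± 0.31 did not pass the test (SE; edgeR adjusted p = 0.0881). Its single non-activated site of 10 and 12 reads stood just above the 7-read minimum, whereas it had 4 sites in each activated EIF3B/C library.

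LDHA and LDHB encode the subunits of the lactate dehydrogenase tetramer. LDHA had 26 and 33 reads in activated EIF3A/C/B, and in EIF3B/C it had 36 and 21 reads in activated cells, against 7 and 28 in non-activated cells. The EIF3B/C values of LDHA overlapped in RPM (39.3 and 23.2 in activated cells, 36.5 and 93.9 in non-activated cells), at a log2 difference of -1.08 ± 0.62 (SE; edgeR adjusted p = 0.239). LDHB had 39 reads in each activated EIF3A/C/B library, all in a single 5′-UTR site. In EIF3B/C, LDHB had 18 and 13 reads in activated cells, against 13 and 15 in non-activated cells, or 19.7 and 14.3 against 67.8 and 50.3 RPM. In EIF3D/L, LDHB had 9 and 10 reads, LDHA had 7 reads in a single library and PGK1 had 10 and 21 reads (edgeR adjusted p = 0.0558), all in activated cells. LDHB was not tested in EIF3B/C, since it stayed under 20 reads in all 4 libraries, and its pooled ratio was 0.298 (exact 95% interval 0.173 to 0.515, counting error only). The 7-read minimum is 36.5 and 23.5 RPM in the non-activated EIF3B/C libraries, above both activated LDHB values. LDHB could thus be listed there only at a higher RPM.

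Of the transporters, SLC2A1 was listed only in activated EIF3B/C, with 25 and 18 reads over 2 sites in each library. It was called higher than in non-activated EIF3B/C (edgeR adjusted p = 0.0427), where it was not listed. This call ended with mRNA reads as library sizes (edgeR adjusted p = 0.0527), and DESeq2 gave an unadjusted p of 0.0727 and no adjusted p. Its reads scaled to the non-activated depth came to 2.89 per site. SLC2A3 and the triosephosphate isomerase TPI1 were not listed in any of 20 libraries. Of the 228 genes whose protein-coding isoforms had at least the TPM of TPI1 in activated cells, 78.5% were listed in at least 1 activated EIF3A/C/B library, and for SLC2A3 this was 76.8% of 2355 genes. The depth of these libraries does not show that eIF3 made no contact with either mRNA.

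In activated cells, EIF3B/C and EIF3A/C/B were of like depth and could be compared without the depth gap between states. GAPDH had 144 and 148 reads in EIF3A/C/B, against 51 and 61 in EIF3B/C, a log2 difference of 1.04 ± 0.15 (SE; edgeR adjusted p = 0.0447). PKM had 528 and 471 reads in EIF3A/C/B, against 673 and 691 in EIF3B/C, a log2 difference of -0.79 ± 0.08 (SE; edgeR adjusted p = 0.0394). Neither gene's values overlapped between the bands. So 1 of 8 members was called higher in EIF3A/C/B, against 7.46% of 3405 genes tested, and 1 was called lower, against 2.53%.

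PGK1 was lower in both EIF3A/C/B libraries than in both EIF3B/C libraries but missed the threshold (log2 difference -0.84 ± 0.14, SE; edgeR adjusted p = 0.0507). DESeq2 called it (-1.16, adjusted p = 0.00111), and with distinct reads it came to -0.13 (edgeR adjusted p = 0.648). SLC2A1 was not listed in EIF3A/C/B and had 25 and 18 reads in EIF3B/C (edgeR adjusted p = 0.0576). The log2 differences of ENO1 (0.03 ± 0.10), ALDOA (0.17 ± 0.14) and LDHA (-0.29 ± 0.37) were within about 1 SE of 0, with edgeR adjusted p from 0.439 to 0.826, and LDHB came to 0.98 ± 0.29 (adjusted p = 0.0995). The median gene tested lay at 0.59 with uniquely aligned reads as library sizes and at 0.26 with TMM scaling, under which GAPDH came to 0.70 (adjusted p = 0.0711) and PGK1 passed (-1.18, adjusted p = 0.0383). With the replicate number as a block, since both bands of a replicate come from the same immunoprecipitate, 0 of 8 members were called (GAPDH adjusted p = 0.158, PKM adjusted p = 0.148). Without EIF3A/C/B replicate 1 or 2, 0 members were called, and with no filter on low counts both adjusted p were 0.0626. With distinct reads PKM came to -0.51 (edgeR adjusted p = 0.0540).

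In the smaller bands of EIF3F/E and EIF3G/E/F, 3 members were listed and no test was made. ENO1 had 23 and 11 reads in activated EIF3F/E, against 23 and 16 in non-activated EIF3F/E. In EIF3G/E/F it had 18 and 17 reads in activated cells, against 17 and 13 in non-activated cells. The exact 95% intervals of the pooled ENO1 ratios, 0.427 to 1.13 and 0.511 to 1.45, both held 1. PGK1 was not listed in activated EIF3F/E and had 9 and 14 reads in non-activated EIF3F/E, and it had 9 reads in 1 activated EIF3G/E/F library. PKM had 18 and 11 reads in activated EIF3G/E/F, against 7 reads in 1 non-activated library, and 20 reads in 1 activated EIF3F/E library, against 7 reads in 1 non-activated library.

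Set against abundance, the order of the members by crosslinked reads was not their order by TPM. In activated cells GAPDH had 115 TPM (the authors' mean of 2 replicates, with no error given), PKM 30.3, ENO1 28.6, LDHB 27.2, ALDOA 15.0, PGK1 12.8, TPI1 9.56, LDHA 3.84, SLC2A3 1.97 and SLC2A1 0.350. With no spread in the tables it cannot be said which neighbours in this order differ. In activated EIF3A/C/B the cluster RPM per kb of the most abundant protein-coding isoform were 198 and 175 for PKM, 126 and 134 for ENO1, and 115 and 117 for GAPDH. They were 65.2 and 58.8 for ALDOA, 26.1 and 25.7 for LDHB, 11.8 and 14.8 for LDHA, and 10.5 and 11.6 for PGK1. GAPDH, with 3.80 times the TPM of PKM, thus had a lower RPM per kb than PKM in both libraries.

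Divided by TPM, the RPM per kb of PKM were 6.56 and 5.77 in activated EIF3A/C/B, against 1.00 and 1.02 for GAPDH and 0.959 and 0.946 for LDHB. The median over the 2175 and 2176 genes with reads and at least 1 TPM was 7.91 and 7.74. PKM stood at percentile 44.1 and 39.9 of these genes, ENO1 at 30.9 and 33.0, and GAPDH at 5.47 and 5.28. All 7 listed members lay below the median gene there, although 6 of them lay above percentile 93 by TPM. A gene of low TPM enters this comparison only if it gathered 7 reads, which raises the median, and among genes with at least 3 TPM, an alternative added after the data were seen, PKM stood at 49.4 and GAPDH at 10.7 (means of both libraries). In activated EIF3B/C PKM reached 10.5 and 10.9, above the median of 7.65 and 7.45. For PGK1 the place depends on the isoform: 3.33 of its 12.8 TPM belonged to the most abundant protein-coding isoform (4887 bases), and its mean percentile was 4.02 by the summed TPM and 15.6 by that isoform. Summed TPM was set against the length of a single isoform for the other members too. That isoform held 57.1 of 115 TPM in GAPDH, 5.70 of 15.0 in ALDOA and 2.10 of 3.84 in LDHA. It held 27.2 of 28.6 TPM in ENO1, 22.8 of 30.3 in PKM and 24.5 of 27.2 in LDHB.

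**Figure D2:**
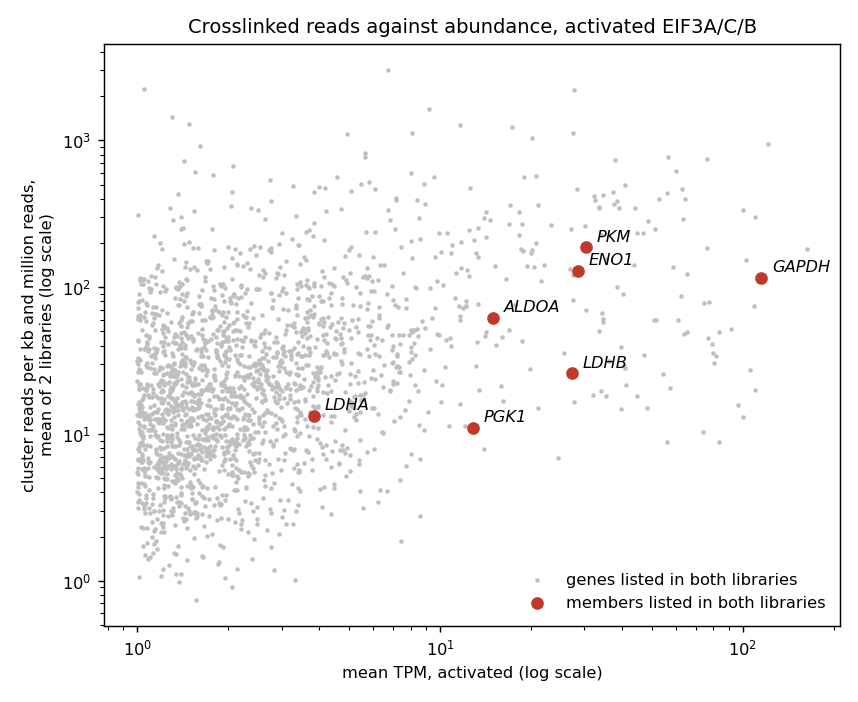
Cluster RPM per kb in activated EIF3A/C/B (mean of 2 libraries, vertical log axis) against the authors' mean TPM in activated cells (horizontal log axis) for genes listed in both libraries, with the 7 listed members in red. PKM lies highest of the members at 30.3 TPM, whereas GAPDH, at 115 TPM, and LDHB, at 27.2 TPM, lie lower.

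Between states, the TPM of 9 members was lower in activated cells, as it was for the median gene. In activated cells 1.53% of all TPM fell on protein-coding genes, against 9.24% in non-activated cells, and the median of the 8504 genes that averaged 1 TPM or more over both states lay at -2.22 on the log2(TPM + 0.1) scale. Differences are therefore given relative to this median gene, as descriptions, since each state has a single mean value. PKM had 30.3 TPM in activated and 87.3 TPM in non-activated cells, a relative log2 difference of 0.69, at percentile 89.7 of the 8504 genes. The sign of this relative value depends on the filter, since relative to the median gene with no filter on low values it came to -0.87. The log2 difference of PKM itself, -1.52, is the same in both settings, and only the median gene moves. The other 7 enzymes lay within a narrow range from -0.78 (LDHA) to -0.55 (ENO1). GAPDH had 115 TPM in activated and 879 TPM in non-activated cells (-0.72), and PGK1 had 12.8 TPM in activated and 93.2 TPM in non-activated cells (-0.64).

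The transporters fell on opposite sides of the enzymes. SLC2A3 had 1.97 TPM in activated and 1.22 TPM in non-activated cells, a relative log2 difference of 2.86 at percentile 99.3. SLC2A1 had 0.350 TPM in activated and 4.40 TPM in non-activated cells (-1.10), but its most abundant protein-coding isoform, at 0.0692 TPM in activated and 0.457 TPM in non-activated cells, gave 0.73. The activated isoform value lies under the 0.1 TPM added before the log2, so the 0.73 depends on that addition. SLC2A3 shares near-identical sequence with SLC2A14 and with pseudogenes, so reads can be split between them. SLC2A14 had 0.00996 TPM in activated and 0.112 TPM in non-activated cells, and the 2 SLC2A3 pseudogene symbols summed to 0.0632 TPM in activated and 1.06 TPM in non-activated cells. Over the 10 members the median relative difference was -0.65, against quartiles of -0.36 and 0.34 over all 8504 genes.

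**Figure D3:**
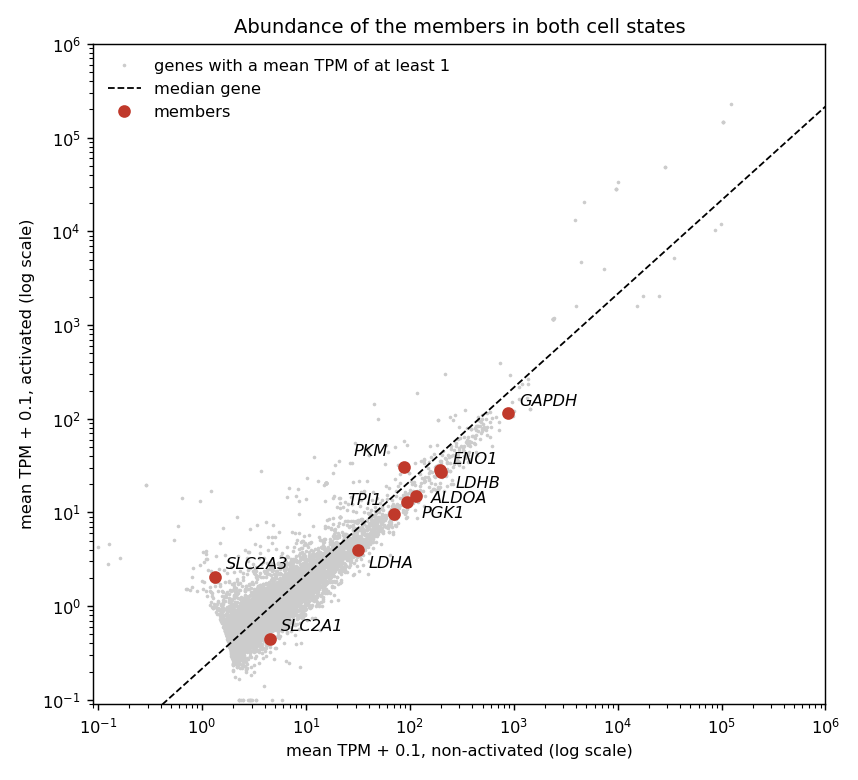
The authors' mean TPM plus 0.1 in activated cells (vertical log axis) against non-activated cells (horizontal log axis) for the 8504 genes that averaged 1 TPM or more, with the 10 members in red and the median gene as a dashed line. PKM (30.3 TPM in activated, 87.3 TPM in non-activated cells) and SLC2A3 lie above the line, and the other 8 members lie below it. With no filter on low values the median gene moves, and PKM came to -0.87 on the log2 scale relative to it.

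By region, sites of PKM and of some other members lay in the coding sequence and 3′-UTR in activated cells, whereas the classed sites of non-activated EIF3B/C lay in the 5′-UTR. LDHA, LDHB and SLC2A1 had no site classed as coding or 3′-UTR in any activated library. In activated EIF3A/C/B 33.3% and 31.0% of 30 and 29 member sites were 5′-UTR or start codon sites, against 55.7% and 55.0% over all genes with an mRNA site. This share was set by PKM, which had 7 coding and 7 3′-UTR sites in replicate 1 and 4 coding and 7 3′-UTR sites in replicate 2. Without PKM it was 61.5% and 50.0%. In activated EIF3B/C the share was 21.9% and 34.4% of 32 member sites in each library (42.9% and 62.5% without PKM), against 51.2% and 51.3% over all genes. In non-activated EIF3B/C all 7 and 7 sites with an mRNA class were 5′-UTR sites, against 90.3% and 87.7% 5′-UTR or start codon sites over all genes. Scaled to this depth, 0.269 of the activated one, activated reads per site ran from 2.89 (SLC2A1) to 15.9 (PGK1), with PKM at 9.40. Weaker coding and 3′-UTR sites could thus have gone uncalled under the 7-read minimum. A change of regions between states cannot be told apart from this limit. LDHB had a single 5′-UTR site in each activated EIF3A/C/B and EIF3B/C library. Some sites, such as 1 of the 2 ENO1 sites in activated EIF3A/C/B replicate 1, carried no single class in the sheets and are left out of these shares.

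Reads per site differed among the members as well. In activated EIF3A/C/B PKM had 26.4 and 29.4 reads per site, ENO1 128.5 and 69.5, and LDHA 13.0 and 16.5, against a median of 14.5 in each library over all genes with an mRNA site. The median T-to-C fraction, the share of a site's reads with a conversion, was 0.85 and 0.82 over the members, against 0.88 and 0.87 over all these genes. Single members lay lower, with LDHA at 0.65 and 0.75, GAPDH at 0.75 and 0.78, and LDHB at 0.79 and 0.69.

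**Figure D4:**
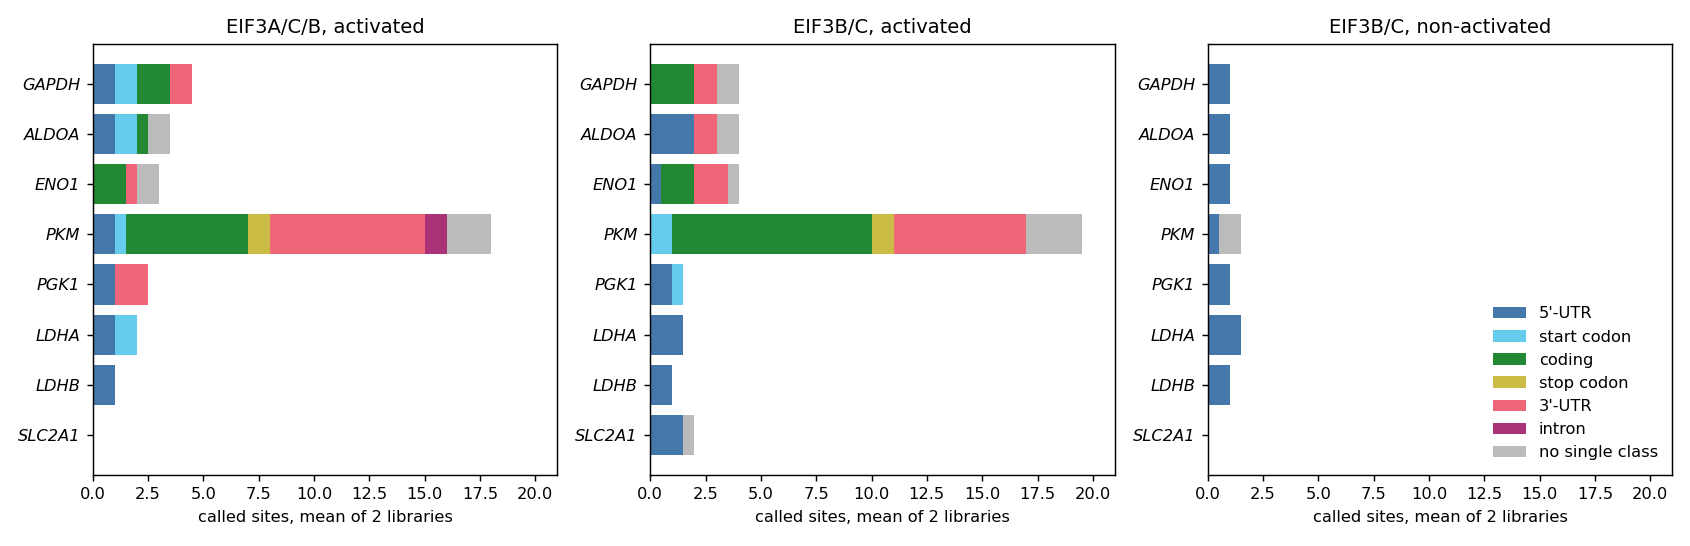
Called sites per member by region (horizontal axis, mean of 2 libraries) in activated EIF3A/C/B, activated EIF3B/C and non-activated EIF3B/C, with colours for the site class in the sheets. PKM has 18 sites in activated EIF3A/C/B and 19.5 in activated EIF3B/C, across the coding sequence and 3′-UTR, whereas each member listed in non-activated EIF3B/C has 1 or 1.5 sites on average. Non-activated EIF3B/C had 0.269 of the activated depth, so weaker sites could go uncalled there.

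Of 32 other genes of glucose uptake, glycolysis, pyruvate entry and their regulators, 9 were listed in any library and 0 reached 100 reads. In EIF3A/C/B 7 of 8 tested were called higher in activated cells, a share near that of all genes (77.1%), and all 7 were unlisted in non-activated cells. They were PFKP, the platelet-type phosphofructokinase, with 84 and 84 reads, the mutase PGAM1 (34 and 37), the ADP-dependent glucokinase ADPGK (40 and 47), the lactate transporter chaperone BSG (38 and 43), the pyruvate carrier subunit MPC2 (19 and 24), and the transcription factors HIF1A (31 and 28) and MYC (35 and 21). In EIF3B/C 2 of 4 were called higher, against 40.9% of all genes, HIF1A with 32 and 21 reads and PFKP with 22 and 20 reads in activated cells, and neither was listed in non-activated EIF3B/C. In EIF3D/L 1 of 1 was called higher, against 74.5% of all genes (PFKP, 28 and 25 reads in activated cells and not listed in non-activated cells). Between bands of activated cells 1 of 8 was called higher in EIF3A/C/B, against 7.46% of all genes, PFKP with a log2 difference of 1.65 ± 0.18 (SE; edgeR adjusted p = 0.0401).

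Of these 32 genes, 19 averaged 1 TPM or more over both states, and 16 of the 19 lay below the median gene, with a median of -0.49. The 3 above it, named after their values were seen, were HIF1A (0.68), the monocarboxylate transporter SLC16A7 (0.39) and PFKP (0.03). MYC had 0.724 TPM in activated and 9.60 TPM in non-activated cells, a relative difference of -1.34.

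Processed pseudogenes of GAPDH and PKM were listed too, all in activated libraries. GAPDHP65 had 17 and 25 reads in activated EIF3A/C/B, with 17 and 13 in activated EIF3B/C. GAPDHP1 had 12 and 20 and GAPDHP70 had 14 and 10 in activated EIF3A/C/B, and GAPDHP61 had 9 reads in a single library. PKMP1 had 21 and 19 reads in activated EIF3A/C/B, with 14 and 7 in activated EIF3B/C. PKMP4 had 8 and 10 in a library of each band, and PKMP5 had 8 in a single library. Summed over the listed copies, the GAPDH pseudogenes held 43 and 55 reads in the EIF3A/C/B libraries and 26 and 13 in the EIF3B/C libraries of activated cells. The PKM pseudogenes held 29 and 19 reads in EIF3A/C/B, with 24 and 15 in EIF3B/C. Reads of a parent mRNA and its near-identical copies cannot be told apart with certainty, so the reads of GAPDH and PKM are uncertain. The sums above do not bound this uncertainty, since copies under the 7-read minimum are not listed. Reads that align equally well to a parent and a copy may also be missing from both. The part of this in the low place of GAPDH against its TPM was not tested.

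Across the 20 libraries, the summed reads of the members followed B2M most closely (Pearson r = 0.93 on log2 of RPM plus 1), then LEF1 (0.80), MKI67 (0.79), MIR142 (0.76) and SNRPF (0.75), out of 271 genes listed in at least 10 libraries. The median r of these genes was 0.55. The points share depth, state and band, so these values are a description. In the 250 bases before the RefSeq start (GRCh38.p14), ACGTG or GCGTG on either strand, the core of hypoxia response elements, occurred in 6 of the 9 members in the promoter table (GAPDH, ALDOA, ENO1, PGK1, TPI1 and LDHA), against 47.4% of 27305 genes. The E-box CACGTG, which overlaps the first motif, occurred in 3 of 9 (GAPDH, ALDOA and LDHA), against 7.73%. A run of at least 5 C or T from the start itself occurred in 1 of 9 (TPI1), against 6.50% of genes. These counts describe letters in a window and not binding.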

How the data were processed

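PAR-CLIP reads and sites per gene in called clusters are whole-number counts as deposited by the authors, who merged reads sharing a random barcode, used Bowtie with the hg38 genome and called clusters with PARalyzer in PARpipe (at least 7 reads per cluster, 5 per group and 2 conversion positions). The T-to-C fraction per site comes from PARpipe as well and was used as deposited. TPM values were deposited by the authors as the mean of 2 replicates per transcript (Cutadapt 2.6, kallisto 0.46.0, GENCODE Release 32), so their depth and spread are unknown. Region classes, also where the sheets name start or stop codons, were used as deposited.

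Members were the rows with the 10 symbols. The members, the 32 other genes, the markers and the tests were chosen with earlier results of these data known. Named are all members, those other genes called in any comparison or with 100 reads, member pseudogenes by symbol, and the 5 genes listed in at least 10 libraries with the highest correlation to the summed members.

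Reads were tested by the quasi-likelihood test of edgeR 4.0.16 (R 4.3.3; Benjamini-Hochberg, threshold 0.05) over all genes that reached 20 reads in 1 or more of the 4 libraries, 2 per group, with uniquely aligned reads as library sizes and unlisted genes at 0. Fitted changes of unlisted genes are not printed. DESeq2 1.42.0, TMM, mRNA reads as library sizes, no filter, distinct reads, a replicate block and leaving out each library were alternatives. TPM was summed over isoforms, with a pseudocount of 0.1. Ratio intervals are exact binomial (95%) on pooled reads and cover counting error only. All 10 replicate pairs differed beyond sampling noise (chi-square per degree of freedom 2.16 to 12.5). The other computations used Python 3.11.15 with pandas 2.3.3, numpy 2.4.6 and scipy 1.17.1, and figures matplotlib 3.10.9. Of the gene symbols, 13 had become dates in the sheets and were kept as such.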

Additional observations from a re-analysis of the deposited data

How the results depend on the processing

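With 2 libraries per group, calls depended on the setting. The replicate block left 0 genes and 0 members called in each of the 4 comparisons (the deviations of same-numbered libraries correlated at -0.0066, 0.061, 0.16 and -0.016), as did leaving out either activated library, or either EIF3A/C/B library between bands. In EIF3A/C/B DESeq2 called 349 genes in place of 2500, 3 members higher and 0 lower. In EIF3B/C DESeq2 called 425 genes in place of 948 and 0 members. There TMM gave 2 members lower, mRNA reads as library sizes 1 higher and 2 lower, and distinct reads 1 higher. In EIF3D/L TMM called 206 genes higher and 12 lower, DESeq2 208 and 8, and mRNA reads 203 and 12, in place of 321 and 1. There no filter gave 674 genes in place of 322 and 4 members higher. Between bands DESeq2 called 814 genes in place of 340 and 3 members lower. No filter called 0 genes there (2064 at an unadjusted p under 0.05), distinct reads 177 genes and 0 members lower, and TMM 108 genes higher and 172 lower in place of 254 and 86, with 0 members higher and 2 lower. Counts with a library left out ranged from 0 to 1804 genes, 0 to 5 members higher and 0 to 1 lower in EIF3A/C/B, from 0 to 1424 genes, 0 to 3 higher and 0 to 3 lower in EIF3B/C, from 0 to 343 genes and 0 to 3 higher in EIF3D/L, and from 0 to 940 genes, 0 to 1 higher and 0 to 2 lower between bands.

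Uncalled values that changed sign were ENO1 in EIF3B/C (-0.17 with TMM, -0.033 to 0.27 with a library left out, -0.060 with DESeq2, -0.30 with mRNA reads, -0.38 with distinct reads), ENO1 between bands (-0.30 with TMM, -0.28 with DESeq2, -0.042 to 0.11 with a library left out), GAPDH in EIF3D/L (-0.30 with TMM, -0.33 with DESeq2, -0.37 with mRNA reads), ALDOA between bands (-0.17 with TMM, -0.15 with DESeq2) and LDHA between bands (0.21 with distinct reads, -0.62 to 0.14 with a library left out). The members' median TPM difference was -1.24 with a pseudocount of 1 and -2.21 with no filter on low values, where PKM came to -0.87, and SLC2A1 came to 0.73 by its most abundant protein-coding isoform. The members' median percentile of reads over TPM was 25.1, and 17.4 with TPM of at least 0.1 and 32.6 with TPM of at least 3. Without PKM the 5′-UTR and start codon share in activated EIF3A/C/B was 55.8% in place of 32.2% (these last 2 settings were chosen after the data were seen). The causes were not tested.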
